A study of Mus musculus with 15 samples.

Results

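Genes that prime blood progenitors for a lymphoid fate were followed in erythro-myeloid progenitors (EMPs) of the mouse yolk sac (YS) after deletion of the histone methyltransferase gene *Ezh2*. The 9 genes, *Tcf7*, *Il7r*, *Flt3*, *Rag1*, *Rag2*, *Ebf1*, *Ikzf1*, *Gata3* and *Dntt*, were chosen by name, with earlier results of these data known. All 9 were found among the 17454 genes of the deposited expression table. RNA was sequenced in bulk from EMPs sorted at E10.5 as lineage-negative, SCA1-negative cells positive for KIT, CD41 and CD16/32, with an individual YS for each library. There were 15 libraries in 4 groups, all from C57BL/6 embryos with loxP-flanked *Ezh2*: 5 Tie2-Ezh2-KO, 5 Vav-Ezh2-KO, 3 Tie2-Ezh2-WT and 2 Vav-Ezh2-WT. *Tie2*-Cre acts in endothelium, before EMPs emerge from it, and *Vav*-iCre acts from the start of the hematopoietic stage, while the WT embryos carried no Cre. The 5 WT libraries were used together as the control of both knockouts.

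EMPs give rise chiefly to erythroid and myeloid cells, and some NK cells have also been traced to them. In lymphoid development, the cytokine receptors FLT3 and IL7R mark and sustain early progenitors, Ikaros, TCF1, GATA3 and EBF1 act as transcription factors on the way to the lymphoid, T and B lineages, and RAG1, RAG2 and terminal transferase assemble and diversify antigen receptor genes. EZH2 is the catalytic subunit of Polycomb repressive complex 2, which methylates histone H3 and keeps many lineage genes silent.

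Expression is given as RPKM, the reads on a gene scaled to its length and to the reads of the library. For all 16877 genes above 0, a gene length was found that turns the RPKM of every library into whole reads, to within 0.0001 of a read and in proportion above 10000 reads. Where few libraries have reads, this length can be a divisor of the true one and the reads are then a lower bound. The libraries held 10407398 to 41025074 reads on genes, with a median of 16091836. PCR amplified the cDNA, and reads are therefore not independent molecules. The detection floors given here, the RPKM of 3 reads, cover counting error only. In bulk RNA, fewer cells of a type and less RNA per cell cannot be told apart.

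The deleted gene was examined first. In WT, *Ezh2* stood at 36.9, 39.5 and 30.1 RPKM (Tie2-Ezh2-WT replicates 4, 10 and 12) and at 42.0 and 41.5 RPKM (Vav-Ezh2-WT replicates 4 and 6). Tie2-Ezh2-KO replicates 7, 9, 11, 13 and 17 showed 27.8, 26.2, 24.8, 29.5 and 26.5 RPKM, and the Vav-Ezh2-KO replicates 1, 9, 10, 26 and 28 showed 33.8, 42.5, 37.8, 38.1 and 34.0 RPKM. Every Tie2-Ezh2-KO library was lower than every WT library, whereas Vav-Ezh2-KO and WT overlapped. The log2 difference from WT was -0.48 (SE 0.12, limma, adjusted p = 0.0418) in Tie2-Ezh2-KO and -0.02 (SE 0.11, limma, adjusted p = 0.969) in Vav-Ezh2-KO. The first was past the threshold in 11 of 22 alternative analyses, with limma adjusted p from 0.0132 to 0.344. It was lost, at 0.0760 to 0.126, without any one of Tie2-Ezh2-WT replicates 4 or 10, Vav-Ezh2-WT replicates 4 or 6, or Tie2-Ezh2-KO replicates 7, 11 or 17. In Tie2-Ezh2-KO against Vav-Ezh2-KO the difference was -0.46 (SE 0.11, limma, adjusted p = 0.0269), a call kept in 13 of 20 alternatives. These values cover the whole gene and do not separate the deleted exons, so they check the genotype labels only in part, and for Vav-Ezh2-KO they do not show the deletion.

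The 9 genes differed widely in level. By mean RPKM over the 15 libraries, *Ikzf1* stood at percentile 78.9 of all genes in the table and *Flt3* at 53.7. *Tcf7*, *Gata3*, *Il7r* and *Rag2* followed at 40.4, 38.6, 34.0 and 30.7, and *Ebf1*, *Dntt* and *Rag1* were at 12, 10.9 and 7.69. The gap between *Ikzf1* (22.9 ± 5.88 RPKM, SD, n = 15) and *Flt3* (2.73 ± 1.95 RPKM, SD, n = 15) was larger than their spread between libraries. From *Tcf7* (0.695 ± 0.647 RPKM) through *Gata3* (0.551 ± 0.405) and *Il7r* (0.305 ± 0.269) to *Rag2* (0.193 ± 0.215, SD, n = 15 each), each neighbor in the order lay within 1 SD of the next. The plot of RPKM in each library shows the first 6 of them.

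**Figure D1:**
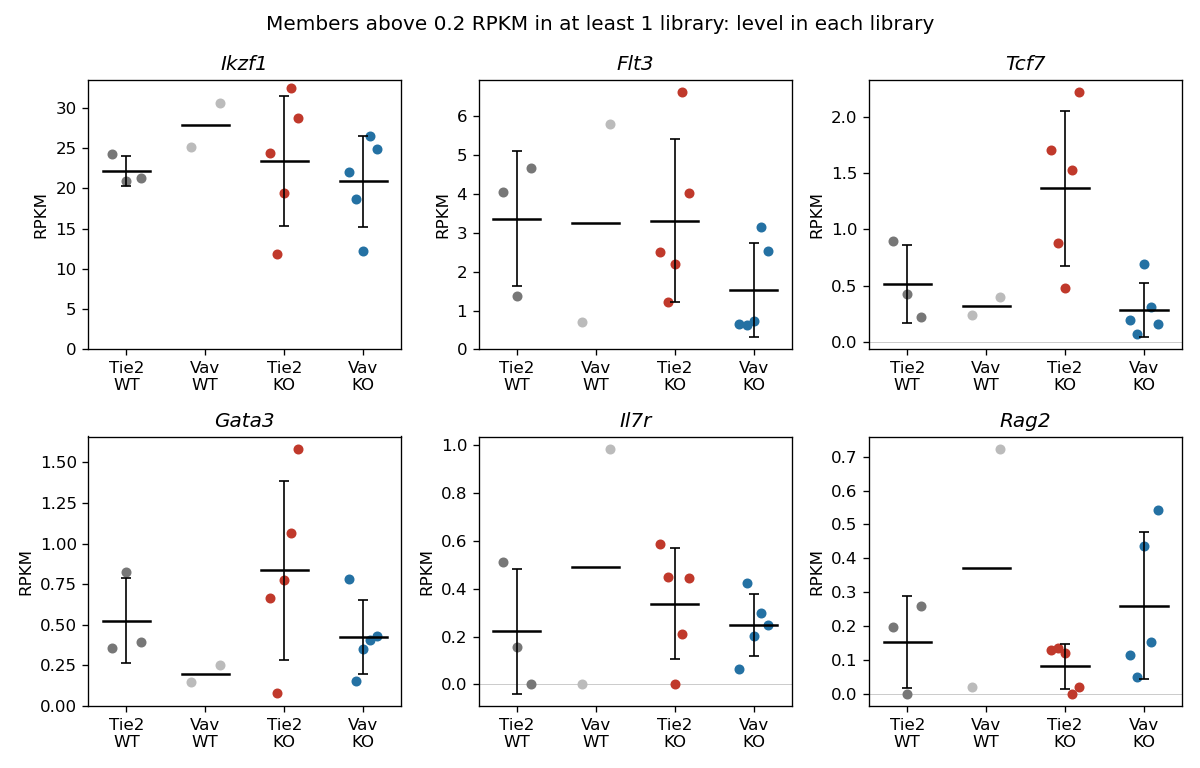
RPKM (vertical axes, each with its own scale) of the 6 lymphoid genes above 0.2 RPKM in at least 1 library, in each library and in 4 groups from left to right, the WT of each Cre line (3 and 2 libraries) and then the knockouts (5 each); points are libraries, horizontal bars are group means and vertical bars are SD where a group has at least 3 libraries. *Tcf7* reached 0.482 to 2.22 RPKM in Tie2-Ezh2-KO and 0.0728 to 0.689 RPKM in Vav-Ezh2-KO libraries, while *Rag1*, *Ebf1* and *Dntt*, at 0 in most libraries, are not drawn.

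Differences were tested with limma on log2(RPKM + 0.2), for all genes that exceeded 0.2 RPKM in 1 or more of the compared libraries, and a gene is called here when its Benjamini-Hochberg adjusted p is under 0.05. This scale understates changes of genes with low RPKM. Of the 9 genes, 6 passed the filter on low values (*Tcf7*, *Il7r*, *Flt3*, *Rag2*, *Ikzf1* and *Gata3*), and *Rag1*, *Ebf1* and *Dntt* did not. *Rag2* passed it in both Tie2-Ezh2-KO comparisons through the other group only, in which it was higher. It stays in the counts and medians of the 6. Deletion from the endothelium onward was compared with WT first. Across all genes, limma called 386 of 14154 (2.73%) in Tie2-Ezh2-KO against WT, 343 higher and 43 lower, and none of the 6 lymphoid genes was among them. At an unadjusted p under 0.05 there were 1552 genes (11%) and 1 of the 6, *Tcf7*, and limma-voom on the recovered reads also called 0 of the 6, with 1 at an unadjusted p under 0.05. The median log2 difference was 0.17 over the 6 genes and 0.01 over all genes tested.

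Deletion in emerging hematopoietic cells left little to call. In Vav-Ezh2-KO against WT, limma called 1 gene of 13646 (0.00733%), *Sva*, and none of the 6 lymphoid genes. *Sva* was at 0 in every WT library and at 2.92 RPKM on average in Vav-Ezh2-KO, so it passed the filter through the group in which it was high, and nothing further is read from its call. None of the 6 was under an unadjusted p of 0.05 either, where 1082 genes (7.93%) lay, and limma-voom called 0 of the 6 at both limits. The median log2 difference was -0.10 over the 6 genes and -0.02 over all genes tested.

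The knockouts were then compared directly. This is the difference between their effects only for genes whose WT level is the same in both Cre lines. In Tie2-Ezh2-KO against Vav-Ezh2-KO, limma called 495 of 14120 genes (3.51%), 372 higher and 123 lower, and 1 of the 6 lymphoid genes, *Tcf7*, which was higher in Tie2-Ezh2-KO. At an unadjusted p under 0.05 there were 2342 genes (16.6%) and 2 of the 6, *Tcf7* and *Flt3*, and limma-voom gave the same counts of 1 and 2 for the 6 genes. The median log2 difference was 0.37 over the 6 genes and 0.04 over all genes tested. The share called among the 6 rests on a single gene and is not read against the share over all genes.

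Over all 15 libraries in 4 groups, limma called 2 of 14394 genes (0.0139%) between Tie2-Ezh2-WT and Vav-Ezh2-WT, *Nfkbia* among them (means of 44.2 RPKM in Tie2-Ezh2-WT and 41.8 in Tie2-Ezh2-KO against 142 in Vav-Ezh2-WT and 150 in Vav-Ezh2-KO), and none of the 6, with 871 genes (6.05%) and 0 of the 6 at an unadjusted p under 0.05. The interaction, which sets each knockout against its own WT group, gave 26 genes (0.181%) and none of the 6, with 942 genes (6.54%) and 0 of the 6 at an unadjusted p under 0.05. limma-voom was not run for these last comparisons, and *Sva* and *Nfkbia* were named after their values were seen.

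**Figure D2:**
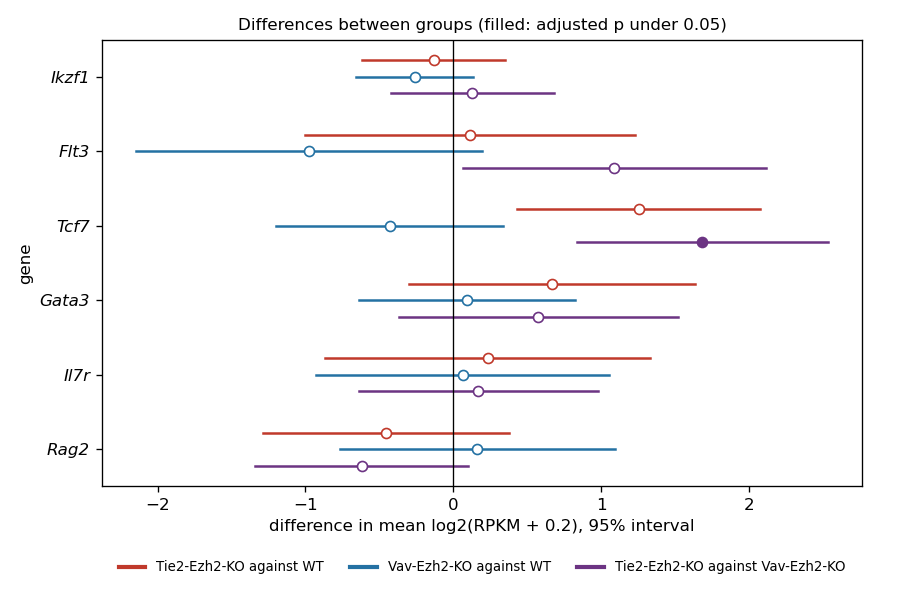
Difference in mean log2(RPKM + 0.2) for each of the 6 tested lymphoid genes (horizontal axis, log2 units) with its 95% confidence interval from limma, in the 3 comparisons between each knockout, the other knockout and WT; filled points are past the adjusted p threshold of 0.05. The 1 filled point is *Tcf7* in Tie2-Ezh2-KO against Vav-Ezh2-KO, at 1.68 (0.84 to 2.53).

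*Tcf7* encodes TCF1, a DNA-binding partner of beta-catenin that starts the T cell program downstream of Notch. It lies on the minus strand of chromosome 11 of GRCm38 (chr11:52252371-52283014). Tie2-Ezh2-KO replicates 7, 9, 11, 13 and 17 gave 1.71, 0.877, 0.482, 1.53 and 2.22 RPKM, from 61, 30, 16, 92 and 80 reads. The Vav-Ezh2-KO replicates 1, 9, 10, 26 and 28 gave 0.190, 0.0728, 0.689, 0.311 and 0.156 RPKM, from 12, 3, 26, 8 and 10 reads. The WT values were 0.902, 0.424 and 0.218 RPKM (Tie2-Ezh2-WT replicates 4, 10 and 12) and 0.240 and 0.403 RPKM (Vav-Ezh2-WT replicates 4 and 6), from 21, 15, 20, 8 and 18 reads. Tie2-Ezh2-KO libraries were the high ones: 4 of 5 lay above every Vav-Ezh2-KO library and 3 of 5 above every WT library, with replicate 11 inside both ranges. The means were 1.37 ± 0.689 RPKM in Tie2-Ezh2-KO, 0.284 ± 0.242 in Vav-Ezh2-KO and 0.437 ± 0.276 in WT (SD, n = 5 each).

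Between the knockouts, *Tcf7* was higher by 1.68 on the log2 scale in Tie2-Ezh2-KO (SE 0.40, limma, adjusted p = 0.0291). An exact permutation test, two-sided and over all 252 divisions of 10 libraries, gave p = 0.0159, where the smallest possible p is 0.00794, and this test was run for 6 genes in 3 comparisons, 18 in all. The call was kept in 13 of 20 alternative analyses, with limma adjusted p from 0.00952 to 0.0821. It was lost with no filter on low values (limma, adjusted p = 0.0609) and, at 0.0671 to 0.0821, without any one of Tie2-Ezh2-KO replicates 7, 13 or 17 or Vav-Ezh2-KO replicates 1, 9 or 28.

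Against WT, the *Tcf7* difference in Tie2-Ezh2-KO was 1.25 (SE 0.39) and was not called (limma, adjusted p = 0.122; two-sided exact permutation test, p = 0.0238). Over 22 alternatives the limma adjusted p ran from 0.0348 to 0.496, and it passed the threshold with array weights (0.0348) and without Tie2-Ezh2-KO replicate 11 (0.0455). In Vav-Ezh2-KO the difference from WT was -0.43 (SE 0.36, limma, adjusted p = 0.795; two-sided exact permutation test, p = 0.286), and 3 of 5 libraries lay below every WT library. The interaction for *Tcf7* was 1.33 (SE 0.69, limma, adjusted p = 0.822), so with each knockout set against its own WT group a difference between the effects was not called. The WT groups differed by 0.36 (SE 0.57, limma, adjusted p = 0.991).

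*Flt3* encodes a receptor tyrosine kinase of multipotent and lymphoid-primed progenitors and lies on chromosome 5 (chr5:147330741-147400489, minus strand). It was at 4.05, 1.38, 4.67, 0.698 and 5.81 RPKM in WT (Tie2-Ezh2-WT replicates 4, 10 and 12, then Vav-Ezh2-WT replicates 4 and 6). Tie2-Ezh2-KO libraries, in the order given for *Tcf7*, had 2.51, 1.22, 2.20, 6.62 and 4.03 RPKM, and Vav-Ezh2-KO libraries in that order had 0.649, 0.639, 0.730, 3.16 and 2.52 RPKM. The groups overlapped, and the libraries under 1 RPKM were all of the Vav line, 3 Vav-Ezh2-KO libraries and Vav-Ezh2-WT replicate 4. Tie2-Ezh2-KO exceeded Vav-Ezh2-KO by 1.09 on the log2 scale (95% confidence interval 0.07 to 2.11), which was not called (limma, adjusted p = 0.264; two-sided exact permutation test, p = 0.0873). From WT, *Flt3* differed by 0.12 in Tie2-Ezh2-KO (SE 0.52, limma, adjusted p = 0.980) and by -0.97 in Vav-Ezh2-KO (SE 0.55, limma, adjusted p = 0.676).

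*Il7r*, the interleukin 7 receptor alpha chain gene on chromosome 15 (chr15:9505788-9530176, minus strand), was low throughout, at 0 to 0.983 RPKM and at most 63 reads. It had no read in Tie2-Ezh2-WT replicate 12, Vav-Ezh2-WT replicate 4 and Tie2-Ezh2-KO replicate 11, where 3 reads would be 0.0228, 0.0628 and 0.0631 RPKM. The means were 0.330 ± 0.420 RPKM in WT, 0.338 ± 0.233 in Tie2-Ezh2-KO and 0.248 ± 0.131 in Vav-Ezh2-KO (SD, n = 5 each), and the highest library of all was Vav-Ezh2-WT replicate 6. The study's sorting antibodies include one to IL7R, listed without saying whether it was part of the lineage gate. Its 3 log2 differences lay between 0.06 and 0.23, each smaller than its SE, with limma adjusted p of 0.877 or more. They changed with the scale: limma-voom on the recovered reads gave 1.66 (SE 1.54) in Tie2-Ezh2-KO and 1.79 (SE 1.27) in Vav-Ezh2-KO against WT, neither called (adjusted p of 0.861 and 0.729).

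*Ikzf1* encodes Ikaros, a zinc finger factor needed for lymphoid development that is also expressed in myeloid progenitors. It lies on chromosome 11 (chr11:11685003-11772926, plus strand) and was the abundant gene of the 9, with 933 to 4515 reads per library. It was at 24.4 ± 3.90 RPKM in WT, 23.3 ± 8.06 in Tie2-Ezh2-KO and 20.9 ± 5.68 in Vav-Ezh2-KO (SD, n = 5 each). Within the knockouts it ranged from 11.8 to 32.4 RPKM and from 12.2 to 26.5 RPKM, and 2 libraries of each lay below every WT library. The log2 differences were -0.13, -0.26 and 0.13 for Tie2-Ezh2-KO against WT, Vav-Ezh2-KO against WT and Tie2-Ezh2-KO against Vav-Ezh2-KO, with 95% confidence intervals of -0.62 to 0.35, -0.66 to 0.13 and -0.42 to 0.68.

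*Gata3*, a regulator of T cell and innate lymphoid development on chromosome 2 (chr2:9857078-9890034, minus strand), had reads in every library. Tie2-Ezh2-KO replicates 7, 9, 11, 13 and 17 had 0.664, 0.0814, 0.777, 1.07 and 1.58 RPKM, against 0.146 to 0.826 RPKM in WT and 0.152 to 0.782 RPKM in Vav-Ezh2-KO. Replicates 13 and 17 lay above all libraries of the other groups and replicate 9 below them all, so Tie2-Ezh2-KO libraries spanned the whole range of the other groups. The log2 difference was 0.67 against WT (SE 0.45, limma, adjusted p = 0.738) and 0.58 against Vav-Ezh2-KO (SE 0.44, limma, adjusted p = 0.575), and Vav-Ezh2-KO differed from WT by 0.09 (SE 0.34, limma, adjusted p = 0.962).

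*Rag1* and *Rag2* encode the recombinase that cuts antigen receptor genes and are neighbors on chromosome 2 (chr2:101638282-101649501, minus strand, and chr2:101624718-101632529, plus strand). *Rag1* had reads only in Tie2-Ezh2-WT replicate 12 (0.0292 RPKM) and Tie2-Ezh2-KO replicate 13 (0.0447 RPKM), with 8 reads in each. In the other 13 libraries 3 reads would be 0.0157 to 0.0432 RPKM. *Rag2* was at 0 to 0.724 RPKM in WT, 0 to 0.135 RPKM in Tie2-Ezh2-KO and 0.0480 to 0.544 RPKM in Vav-Ezh2-KO, with at most 53 reads, and its groups overlapped. Its log2 difference was -0.45 (SE 0.39) in Tie2-Ezh2-KO against WT, 0.16 (SE 0.43) in Vav-Ezh2-KO against WT and -0.62 (SE 0.34) between the knockouts, with limma adjusted p of 0.393 or more. No Tie2-Ezh2-KO library exceeded 0.2 RPKM, so *Rag2* passed the filter in both Tie2-Ezh2-KO comparisons through the other group only. Nothing is read from its differences there. Both genes lie within the span of *B230118H07Rik* (chr2:101560781-101649532, minus strand, 15.7 RPKM on average), so the origin of these few reads is uncertain.

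*Dntt*, which encodes terminal transferase, lies on chromosome 19 (chr19:41029275-41059525, plus strand) and had reads in Tie2-Ezh2-KO replicate 7 alone, 5 reads or 0.147 RPKM. *Ebf1*, a determinant of the B lineage on chromosome 11 (chr11:44617317-45008091, plus strand), had reads in Tie2-Ezh2-KO replicate 13 alone, at 0.183 RPKM and at least 11 reads. In the 14 libraries at 0, 3 reads of *Dntt* would be 0.0343 to 0.135 RPKM, and 3 reads of *Ebf1* at most 0.0326 to 0.128 RPKM, so lower levels were not detectable at this depth. With no filter on low values, the limma adjusted p of *Rag1*, *Ebf1* and *Dntt* ran from 0.674 to 0.972 where a test was possible, and *Ebf1* and *Dntt* could not be tested in Vav-Ezh2-KO against WT, where all libraries were at 0. The library kit does not mark strand, and *Tcf7*, *Flt3*, *Ebf1*, *Ikzf1* and *Gata3* overlap annotated noncoding or neighboring genes, so reads from these cannot be told apart from their own.

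Likeness across libraries was described for the 5 genes above 0.2 RPKM in at least 10 of them. Pearson's r of log2(RPKM + 0.2) was taken over the 15 libraries, which share depth and group differences. It was 0.637 for *Flt3* with *Ikzf1*, 0.495 for *Tcf7* with *Gata3*, 0.455 for *Ikzf1* with *Gata3* and 0.438 for *Tcf7* with *Flt3*. The lowest of the 10 pairs was -0.133 for *Il7r* with *Gata3*. The genes whose pattern was most like that of *Tcf7*, among genes averaging at least 1 RPKM, were *Laptm4b* (r = 0.892), *Car14* (0.882) and *Msantd3* (0.874). For *Flt3* they were *Homer3* (0.844), *Gcnt2* (0.829) and *Kdm1a* (0.820), and for *Ikzf1* *Taf5l* (0.960), *H2afy* (0.950) and *Hsp90ab1* (0.940). For *Gata3* they were *Abcb4* (0.867), *Gsg2* (0.825) and *1700025G04Rik* (0.813), and for *Il7r* *Mllt3* (0.732), *Tax1bp3* (0.713) and *Uprt* (0.71). Each is among the highest of a very large number of correlations over 15 libraries and is a description only.

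Genes that act with the 9 were counted in 8 lists. No gene of these lists was called by limma in either knockout against WT, and unadjusted counts are given with each list. For these and for the marker lists below, the shares over all genes are 2.73% called and 11% at an unadjusted p under 0.05 in Tie2-Ezh2-KO against WT, 0.00733% and 7.93% in Vav-Ezh2-KO against WT, and 3.51% and 16.6% between the knockouts. Several of the counts lie near these shares, and with lists this short none is read as a result about a list. In the Notch input list, which feeds *Tcf7*, 9 of 10 genes were in the table, and limma called 1 of 7 tested between the knockouts and 0 of 8 in Tie2-Ezh2-KO against WT, with 4 at an unadjusted p under 0.05 in each. Of these 4, 2 between the knockouts (*Jag1* and *Jag2*) and 1 against WT (*Jag1*) passed the filter through Tie2-Ezh2-KO only, where they were high, and nothing is read from them; both were named after their values were seen. The called gene was *Nrarp*, a target and feedback inhibitor of Notch, at 4.38 ± 0.917 RPKM in Tie2-Ezh2-KO, 1.93 ± 0.884 in Vav-Ezh2-KO and 1.98 ± 0.914 in WT (SD, n = 5 each). It was higher by 1.17 between the knockouts (SE 0.28, limma, adjusted p = 0.0323) and kept the call in 11 of 20 alternatives (adjusted p 0.0106 to 0.0818). It was lost without any one of Tie2-Ezh2-KO replicates 7, 11, 13 or 17 or Vav-Ezh2-KO replicates 1, 10, 26 or 28, at limma adjusted p of 0.0610 to 0.0818.

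Of 24 early lymphoid transcription factors, 23 were in the table and 20 were tested, with 2, 3 and 4 at an unadjusted p under 0.05 in Tie2-Ezh2-KO against WT, Vav-Ezh2-KO against WT and between the knockouts. *Id2*, an inhibitor of E proteins that favors innate lymphoid and NK cells, was the 1 called by limma. It was at 5.10 ± 2.62 RPKM in Tie2-Ezh2-KO, 1.16 ± 0.340 in Vav-Ezh2-KO and 3.46 ± 3.22 in WT (SD, n = 5 each) and was higher by 1.87 between the knockouts (SE 0.33, limma, adjusted p = 0.00499), a call kept in all 20 alternatives. In the list of lymphoid-primed surface and early genes, 11 of 12 were in the table, with 2, 3 and 2 at an unadjusted p under 0.05 in the same comparisons. Of the first 2, *Ccr7* passed the filter through Tie2-Ezh2-KO only, and nothing is read from it. Of the 10 tested between the knockouts, *Cd52*, a surface glycoprotein of mature lymphocytes, was lower in Tie2-Ezh2-KO (41.1 ± 11.3 against 81.1 ± 18.1 RPKM, SD, n = 5 each). Its log2 difference was -0.99 (SE 0.19, limma, adjusted p = 0.00831), and the call was kept in all 20 alternatives. *Cd52* was at 61.9 RPKM on average in WT. It did not stand for its list, in which 8 of the 10 genes tested were higher in Tie2-Ezh2-KO and 2 lower. Their median log2 difference was 0.27, and 1 of the 10 passed the filter through Tie2-Ezh2-KO only.

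No gene was called by limma in the other 5 lists in any of these 3 comparisons. In the list of IL7 and FLT3 signaling, all 13 genes were tested against WT and 12 between the knockouts, with 3 at an unadjusted p under 0.05 in each Tie2-Ezh2-KO comparison. Its most abundant genes were *Il2rg*, the common gamma chain, at 136, 91.4 and 123 RPKM and *Jak1* at 29.1, 30.0 and 25.6 RPKM (means in WT and then in the Tie2-Ezh2-KO and the Vav-Ezh2-KO libraries). The 11 partners of V(D)J recombination had 1 gene at an unadjusted p under 0.05, between the knockouts, and were led by the DNA-bending proteins *Hmgb1* and *Hmgb2*. Of the other Ikaros genes (*Ikzf5* and *Ikzf2*) and TCF/LEF genes (*Tcf7l2* and *Tcf7l1*), 2 each were tested and none was under an unadjusted p of 0.05. Of the EBF and GATA families 2 were tested, *Gata1* at 168, 178 and 185 RPKM and *Gata2* at 56.8, 73.0 and 79.1 RPKM, with 1 at an unadjusted p under 0.05, in Vav-Ezh2-KO against WT. limma-voom counts were not made for these lists.

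Markers of lymphocytes themselves were then read beside the *Tcf7* values. Of 16 T lineage markers, 15 were in the table and *Cd4* was at 0 in every library. Their summed level in WT was 52.5, 51.3 and 55.6 RPKM (Tie2-Ezh2-WT replicates 4, 10 and 12) and 45.7 and 33.5 RPKM (Vav-Ezh2-WT replicates 4 and 6). Tie2-Ezh2-KO replicates 7, 9, 11, 13 and 17 summed to 63.6, 72.2, 74.7, 58.7 and 61.8 RPKM, and Vav-Ezh2-KO replicates 1, 9, 10, 26 and 28 to 44.3, 55.6, 56.5, 49.5 and 53.9 RPKM. Every Tie2-Ezh2-KO library lay above every other library in this sum, most of which came from *Lat*, an adaptor also used in megakaryocytes and mast cells.

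In Tie2-Ezh2-KO against WT, limma called 2 of 8 tested T lineage markers, both higher. Of the 8, 5 were higher and 3 lower, with a median log2 difference of 0.41. The filter was passed by 3 of the 8 through Tie2-Ezh2-KO only, where they were high. *Lck*, a kinase of T cell receptor signaling, was at 3.67 ± 1.27 RPKM in Tie2-Ezh2-KO, 1.46 ± 0.397 in WT and 1.80 ± 0.739 in Vav-Ezh2-KO (SD, n = 5 each), a log2 difference from WT of 1.21 (SE 0.28, limma, adjusted p = 0.0340). Its call was kept in 11 of 22 alternatives (limma, adjusted p 0.0255 to 0.0895) and lost, at 0.0562 to 0.0871, without any one of Tie2-Ezh2-WT replicates 4, 10 or 12, Vav-Ezh2-WT replicate 4, or Tie2-Ezh2-KO replicates 9, 11 or 13. Between the knockouts, *Lck* was higher by 1.02 in Tie2-Ezh2-KO (SE 0.34) and was not called (limma, adjusted p = 0.130). *Cd2*, an adhesion receptor of T and NK cells, had no read in any WT or Vav-Ezh2-KO library and 3 to 9 reads in each Tie2-Ezh2-KO library, a mean of 0.324 ± 0.161 RPKM (SD, n = 5). It passed the filter only through the libraries in which it was high, so its calls against WT and against Vav-Ezh2-KO set a few reads against 0, and only the reads are used here.

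Of 12 B lineage markers, 10 were in the table, *Blk* was at 0 in every library, and the sums of 23.9 to 40.5 RPKM came almost wholly from *Cd79b*. Of 9 NK and innate lymphoid markers, 6 were in the table, led by *Klrd1*, with sums of 0.207 to 2.33 RPKM. No marker of either list was called by limma in these 3 comparisons, with 1 in each list at an unadjusted p under 0.05. The list of 8 EMP genes holds genes of the sorting gate and also general blood genes such as the transcription factor gene *Gata1*, its most abundant. It summed to 457 to 626 RPKM in the 15 libraries, and none of the 8 was called. At an unadjusted p under 0.05 there were 3 against WT, all lower in Tie2-Ezh2-KO, and 3 between the knockouts, 2 lower and 1 higher. Both CD16/32 genes of the gate were among them, *Fcgr3* at -0.47 and -0.52 (limma, adjusted p = 0.131 and 0.117) and *Fcgr2b* at -0.65 and -0.87 (limma, adjusted p = 0.131 and 0.102), against WT and then against Vav-Ezh2-KO.

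Markers of other cells of the YS were high in some of the same libraries. The 8 visceral endoderm markers, led by *Apoa1*, summed to 118 RPKM in Tie2-Ezh2-WT replicate 4 and 170 RPKM in Tie2-Ezh2-KO replicate 7, against 4.44 to 9.85 RPKM in the other 4 Tie2-Ezh2-KO libraries, 1.28 to 4.68 RPKM in the other 4 WT libraries and 0.815 to 3.83 RPKM in Vav-Ezh2-KO. Every Tie2-Ezh2-KO sum was thus above every Vav-Ezh2-KO sum, but these sums include *Amn*. *Amn* made up 1.52 of 4.49 RPKM in Tie2-Ezh2-KO replicate 11 and 2.08 of 4.44 RPKM in replicate 13. Without it both would lie below Vav-Ezh2-KO replicate 9, which had 3.83 RPKM and no *Amn* read. The separation thus rests on *Amn* and is not read beside the *Tcf7* values. All 6 markers tested between the knockouts were higher in Tie2-Ezh2-KO, with a median log2 difference of 1.71 beside 0.04 over all genes, 1 called and 2 at an unadjusted p under 0.05. Of the 6, 3 passed the filter through Tie2-Ezh2-KO only, and nothing is read from their direction. The other 3 were higher by 1.68 to 1.86, and none of them was called. *Amn*, an endocytic receptor subunit of this tissue and the called gene, stood in Tie2-Ezh2-KO, with replicates ordered as above, at 4.66, 1.67, 1.52, 2.08 and 2.21 RPKM. In Vav-Ezh2-KO it had reads in replicate 10 alone (0.176 RPKM), under the filter, so nothing further is read from that call. In WT it had reads in Tie2-Ezh2-WT replicate 4 (0.798 RPKM) and Vav-Ezh2-WT replicate 6 (0.119 RPKM). It was thus highest of its group in both libraries with a high sum and also raised in the other Tie2-Ezh2-KO libraries. Against WT the difference was 3.01 (SE 0.45, limma, adjusted p = 0.00155), a call kept in all 22 alternatives, while the other 5 markers had limma adjusted p of 0.920 to 0.984. Tie2-Ezh2-WT replicate 4 also had the highest *Tcf7* of the WT libraries. With these 2 libraries left out, a choice made after seeing the data, the *Tcf7* difference of Tie2-Ezh2-KO from WT was 1.37 (limma, adjusted p = 0.161), and 217 genes were called in place of 386.

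The 3 primitive erythroid globin genes, led by *Hbb-bh1*, summed to 140, 126, 142, 65.2 and 118 RPKM in WT and to 59.9 to 155 RPKM in Vav-Ezh2-KO. In Tie2-Ezh2-KO replicates 7, 9, 11, 13 and 17 they summed to 309, 585, 855, 192 and 284 RPKM. All 5 Tie2-Ezh2-KO libraries were above all others, and replicate 11, with the highest sum, had the lowest *Tcf7* of its group, as the plot of *Tcf7* against the marker sums shows. *Hba-x* was higher by 6.33 against WT (SE 0.62, limma, adjusted p = 8.88e-05) and by 5.64 against Vav-Ezh2-KO (SE 0.72, limma, adjusted p = 0.000422), calls kept in 21 of 22 alternatives, limma-voom giving 0.0781, and in all 20. *Hbb-bh1* was higher by 1.18 (SE 0.29, limma, adjusted p = 0.0441) and by 1.29 (SE 0.31, limma, adjusted p = 0.0302), and kept these calls in 8 of 22 and 13 of 20 alternatives. The remaining gene, *Hbb-y*, was not called, at 0.64 (SE 0.47, limma, adjusted p = 0.779) and 0.36 (SE 0.51, limma, adjusted p = 0.780). The cells were sorted as lineage-negative, and the study's antibody list includes markers of erythroid cells, macrophages and T and B cells. The part of other YS cells in the *Tcf7* values was not tested.

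**Figure D3:**
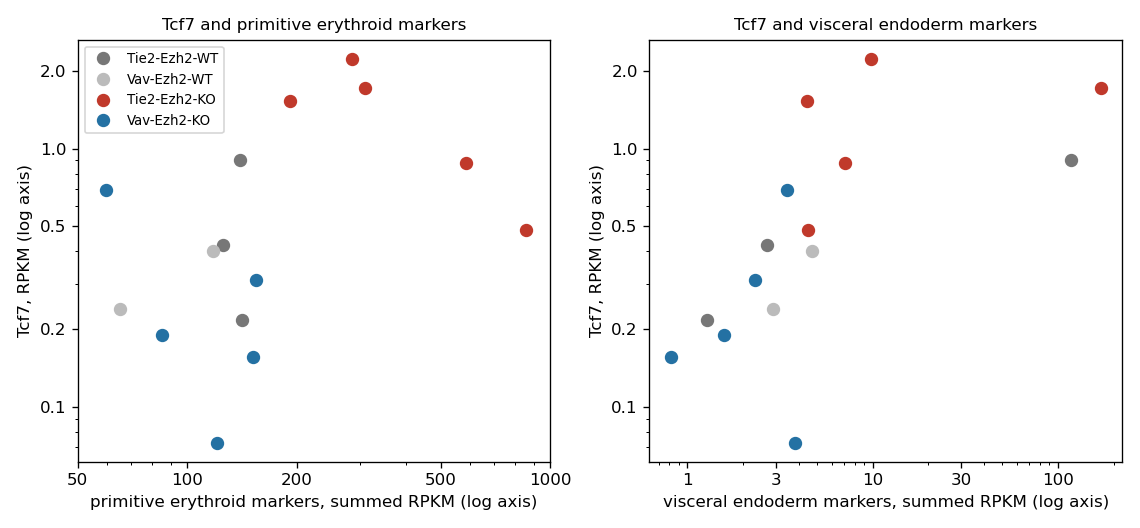
*Tcf7* RPKM (vertical log axes) against the summed RPKM of the primitive erythroid markers (left, log axis) and of the visceral endoderm markers (right, log axis), with 1 point per library colored by group. Tie2-Ezh2-KO libraries have the highest primitive erythroid sums (192 to 855 RPKM), and the visceral endoderm sum sets apart 1 Tie2-Ezh2-WT and 1 Tie2-Ezh2-KO library at 118 and 170 RPKM.

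In the remaining lists, limma called 1 macrophage and 1 mast cell marker, both lower in Tie2-Ezh2-KO than in Vav-Ezh2-KO. *Cd68* of macrophages was at 9.72 ± 1.77 against 15.9 ± 2.77 RPKM (log2 difference -0.71, SE 0.17, limma, adjusted p = 0.0333; kept in 11 of 20 alternatives), with *C1qa* at 0 in every library. Of the 6 macrophage markers tested there, 5 were lower and 1 higher, with a median log2 difference of -0.24. *Cpa3*, a mast cell protease, was at 22.6 ± 10.7 against 67.1 ± 26.4 RPKM (log2 difference -1.61, SE 0.35, limma, adjusted p = 0.0199; kept in 16 of 20 alternatives), with *Mcpt8* at 0 in every library (SD, n = 5 each). In its list, 3 of the 5 genes tested were higher and 2 lower, with a median log2 difference of 0.23. The 3 higher genes averaged at most 1.06 RPKM in either knockout, and 1 of them passed the filter through Tie2-Ezh2-KO only. The 6 mast cell and basophil markers summed to 35.6 to 79.2 RPKM in Tie2-Ezh2-KO and 85.7 to 210 RPKM in Vav-Ezh2-KO. Their sums were 50.9 to 160 RPKM in Tie2-Ezh2-WT and 65.3 to 105 RPKM in Vav-Ezh2-WT. For the 7 macrophage markers the sums were 8.16 to 19.8, 19.2 to 25.4, 10.8 to 24.2 and 21.4 to 27.8 RPKM in the same order of groups. No marker of endothelium (9 of 10 in the table, led by *Egfl7*, sums of 129 to 185 RPKM) or mesenchyme (9, *Pdgfrb*, 1.43 to 3.54 RPKM) was called by limma, with 4 and 1 at an unadjusted p under 0.05 between the knockouts.

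Promoter sequence was described for all 9 genes from RefSeq (build GRCm38.p6), which gave 12 windows of 250 bases before to 50 bases after a start. Over all 32851 promoters the median was 52.7% GC with 7 CpG. The first *Ikzf1* window had 52 CpG and the first *Tcf7* window 45, more than 99.4% and 98.1% of promoters, and the *Gata3* and *Flt3* windows had 22 and 18. *Il7r*, *Dntt*, *Rag1* and *Rag2* were poor in CpG, with 1, 2, 3 and 3. The windows were searched on both strands for short motifs. The RUNX core TGTGGT, present in 16.8% of all promoters, occurred 2 times in *Rag1* and 1 time each in *Il7r* and *Ebf1*. Of the TCF/LEF forms, CTTTGAT (3.73% of promoters) occurred in *Flt3*, while the other form, CTTTGAA (5.14% of promoters), occurred in *Ebf1*. The E-box form CAGGTG (20.2% of promoters) occurred in *Tcf7* and *Rag1*, and the second E-box form searched, CAGCTG (16.3% of promoters), occurred in *Tcf7*, *Rag1* and *Gata3*. The GATA motif GATAAG (7.44% of promoters) occurred in *Tcf7*. A match describes the letters and is no evidence of binding.

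The windows of *Tcf7*, the 1 gene of the 9 that was called, are printed from 5′ to 3′ on the minus strand, at chr11:52282965-52283264 (76.3% GC) and chr11:52282546-52282845 (64.3% GC, 17 CpG). Capitals mark CAGCTG and GATAAG in the first and CAGGTG in the second. The first window can be read in codons from the atg just before CAGCTG to its end without a stop codon. Both of its marked motifs, and many of its CpG, lie in this stretch and may be coding sequence rather than promoter, which was not tested.
*Tcf7* window 1: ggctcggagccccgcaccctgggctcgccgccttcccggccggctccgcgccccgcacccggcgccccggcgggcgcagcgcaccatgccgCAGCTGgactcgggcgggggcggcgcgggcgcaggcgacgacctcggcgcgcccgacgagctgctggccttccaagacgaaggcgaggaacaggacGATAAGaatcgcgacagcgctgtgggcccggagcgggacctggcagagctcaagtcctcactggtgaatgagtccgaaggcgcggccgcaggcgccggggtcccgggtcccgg
*Tcf7* window 2: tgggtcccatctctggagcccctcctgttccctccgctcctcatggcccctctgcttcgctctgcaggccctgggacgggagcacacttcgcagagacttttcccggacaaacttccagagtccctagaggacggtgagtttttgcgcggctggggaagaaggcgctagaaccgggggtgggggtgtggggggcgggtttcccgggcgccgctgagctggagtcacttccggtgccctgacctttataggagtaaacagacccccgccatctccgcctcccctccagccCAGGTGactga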

How the data were processed

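RNA-seq of sorted EMPs from single YS at E10.5 was analysed in 15 libraries, grouped by the genotype in the sample labels. The cDNA was made with a SMARTer Ultra Low kit, and the labels and the study's methods give different numbers of cells per library. Per the submitters' processing notes, the authors used TopHat2 2.0.13 and the GRCm38/mm10 genome to place the single-end reads and featureCounts to count them on genes, and they deposited RPKM values for 17454 genes. RPKM corrects for depth and gene length and not for differences in composition, and the 10 most abundant genes took 4.14% to 4.90% of reads in each library.

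Whole reads were recovered from the RPKM steps, and values near 0.2 RPKM rest on few reads. Replicates of a group differed by more than sampling noise (chi-square per gene of 16.4 to 133). The tool for differences was limma 3.58.1, run in R 4.3.3, with lmFit and a trended eBayes. Values were log2(RPKM + 0.2), genes had to exceed 0.2 RPKM in 1 library or more, and p-values were Benjamini-Hochberg adjusted with a threshold of 0.05. For single genes, exact permutation tests, two-sided, were added in Python 3.11.15. No count model was the main test, since the deposited unit is RPKM. The code was tested on simulated data. The genes changed there were more abundant than every one of the 9 except *Ikzf1*, so that test does not cover genes at the low levels of the others. Genes named outside the 9 are those past the threshold in each list, up to 4, or otherwise the 2 most abundant, and the 3 with the most similar pattern. Marker lists also name their most abundant gene and some genes at 0 in every library. *Sva*, *Nfkbia*, *Hbb-y*, *Jag1*, *Jag2*, *Ccr7*, *Fcgr3* and *Fcgr2b* were named after their values were seen.

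The 9 genes and the lists were chosen with earlier results of these data known. The alternatives were pseudocounts of 1 and 0.05, no filter or a filter in at least 3 libraries, eBayes without trend, quantile normalization, array weights, a common median, a single fit of all 15 libraries, limma-voom, WT of the same Cre line only and leaving out each library in turn. Those for the WT groups, the interaction, *Ezh2* and the list genes, and the fit without both libraries high in visceral endoderm markers, were chosen after seeing the data. The libraries come from several experiments that the labels do not assign, so no batch term was fitted. Coordinates are those of GRCm38. Some genes and 1 marker list are not reported here.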

Additional observations from a re-analysis of the deposited data

Results flagged for a closer look

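Among 22 sets of 5 libraries examined for a single library far from the others, 4 passed the limit. In each, a single library had reads and the others were at 0, so the gap to the nearest library made up the whole range, a ratio of 1. These were *Rag1* in WT (Tie2-Ezh2-WT replicate 12, 8 reads), *Rag1* and *Ebf1* in Tie2-Ezh2-KO (both replicate 13, at 8 and at least 11 reads) and *Dntt* in Tie2-Ezh2-KO (replicate 7, 5 reads). Tie2-Ezh2-WT replicate 12 and Tie2-Ezh2-KO replicate 13 were the deepest libraries of their groups, at 41025074 and 26825709 reads. Tie2-Ezh2-KO replicate 7, which held the *Dntt* reads, was not, at 15934827 reads.

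*Tcf7* differed directly between the knockouts, by 1.68 on the log2(RPKM + 0.2) scale (limma, adjusted p = 0.0291), with 4 of 5 Tie2-Ezh2-KO libraries above all Vav-Ezh2-KO libraries. This measures a difference between the effects of the deletions only if WT is the same in both Cre lines. With each knockout set against its own WT group, the difference was 1.33 (95% confidence interval -0.13 to 2.78) and was not called (limma, adjusted p = 0.822).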

How the results depend on the processing

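No paired analysis was possible, because each library comes from an individual YS and the labels do not pair libraries between groups. Values here are log2 differences or numbers of genes called, and the cause of each change was not tested.

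For Tie2-Ezh2-KO against WT, array weights called 1 of the 6 lymphoid genes, and leaving out single libraries 0 to 1. Genes called were 187 with WT of the same Cre line only and 217 without both libraries high in visceral endoderm markers, the latter chosen after seeing the data. *Ikzf1* turned to 0.026 with array weights and *Flt3* to -0.069 with WT of the same Cre line only. With single libraries left out, *Il7r* ran from -0.028 to 0.61, *Flt3* from -0.30 to 0.39 and *Ikzf1* from -0.27 to 0.089. *Rag2* ran from -0.68 to -0.13 and *Gata3* from 0.41 to 1.08, without a change of direction.

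With limma-voom some differences of the low genes were larger than on the log2(RPKM + 0.2) scale, while *Il7r* between the knockouts was near 0 (given below). Among the larger were *Il7r* 1.66 and *Rag2* -1.27 in Tie2-Ezh2-KO against WT, 1.79 and 0.79 in Vav-Ezh2-KO against WT, *Rag2* -2.09 between the knockouts, and *Tcf7* 1.83 in Tie2-Ezh2-KO against WT and 2.51 between the knockouts. Nothing is read from *Rag2* in the Tie2-Ezh2-KO comparisons, which it entered through the other group only. Over all alternatives, *Tcf7* ran from 0.847 to 2.51 between the knockouts and from 0.685 to 1.83 in Tie2-Ezh2-KO against WT. The *Tcf7* interaction ran from 0.673 to 1.74.

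For Vav-Ezh2-KO against WT, 2 genes were called with WT of the same Cre line only and 1 to 2 with single libraries left out (2 without Tie2-Ezh2-WT replicate 10 or 12 or Vav-Ezh2-WT replicate 4). *Il7r* turned to -0.045 with a pseudocount of 1 and, with WT of the same Cre line only, *Il7r* to -0.17 and *Rag2* to -0.10. *Ezh2* turned to 0.0010 with quantile normalization and 0.023 with a common median. With single libraries left out, *Il7r* ran from -0.20 to 0.44, *Rag2* from -0.063 to 0.49, *Gata3* from -0.090 to 0.31 and *Ezh2* from -0.10 to 0.015.

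For Tie2-Ezh2-KO against Vav-Ezh2-KO, 0 of the 6 genes were called with no filter and 0 to 1 with single libraries left out. Genes called were 765 with array weights and 320 (without Vav-Ezh2-KO replicate 28) to 969 (without Tie2-Ezh2-KO replicate 9) with single libraries left out. *Il7r* turned to -0.071 with quantile normalization and -0.057 with limma-voom, and ran from -0.0048 to 0.49 with single libraries left out, as *Ikzf1* did from -0.049 to 0.35. Single libraries also ended the calls of *Ezh2* (without Tie2-Ezh2-KO replicates 7, 11 or 17 or Vav-Ezh2-KO replicates 9, 10 or 26, limma adjusted p 0.0571 to 0.0784), *Hbb-bh1* (Tie2-Ezh2-KO 7 or 11, Vav-Ezh2-KO 1, 9 or 10, 0.0575 to 0.0736), *Cd68* (Tie2-Ezh2-KO 7, 11 or 17, Vav-Ezh2-KO 1, 26 or 28, 0.0508 to 0.0940) and *Cpa3* (Vav-Ezh2-KO 1 or 9, 0.0529 and 0.0543). Against WT, *Hbb-bh1* was lost without any 1 of the 5 WT libraries or Tie2-Ezh2-KO replicates 7, 9 or 11 (limma adjusted p 0.0535 to 0.101).

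Between the WT groups, 1 gene was called with a pseudocount of 1, 4 with no filter and 0 to 8 with single libraries left out, where *Tcf7* ran from -0.013 to 0.69. For the interaction, 16 genes were called with no filter and 8 to 32 with single libraries left out. These alternatives were chosen after seeing the data. Of all single-gene differences, 647 kept their direction and their side of the threshold, 83 kept the direction and lost the call, 2 gained it and 33 changed direction.

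Most of the 9 genes rest on fewer than 100 reads per library, and small changes in them were not detectable here. Whether depth or the spread between libraries set this limit was not tested. *Flt3*, with 38 to 701 reads, had an SE of 0.52 in Tie2-Ezh2-KO against WT, beside 0.39 for *Tcf7* with 8 to 92 reads. The SE of a gene with low RPKM also depends on the pseudocount. With 0.05 in place of 0.2 it was 0.56 for *Flt3* and 0.48 for *Tcf7*, so these SEs cannot show what sets the limit. The RPKM table gives no cell numbers, and WT libraries are shared by both knockout comparisons.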
